A study of Mus musculus with 21 samples.

Results

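Digital microfluidic actuation at 1 kHz was compared with actuation at 18 kHz in Ba/F3 cells, an interleukin 3-dependent mouse hematopoietic line usually described as pro-B. The comparison was set by the sample labels and used all 3 arrays labelled 1 kHz and all 3 labelled 18 kHz, 6 of the 21 arrays of the study, with every probe considered. In this technique electrodes beneath a coated surface are switched on and off to pull a droplet along, and the cells it carries are exposed to the electric field and to any heating it brings. Actuation ran continuously for 15 min at 400 Vpp with a sinusoidal signal of 1 kHz (3 arrays) or 18 kHz (3 arrays), and 3 arrays of untreated Ba/F3 cells processed in the same batch gave the level without actuation. The question was which transcripts differed between the frequencies when voltage and duration were the same. All groups came from this single cell line. No label states that the replicates were separate cultures, or the time from treatment to lysis, so that p-values measure only the spread between these samples, which may be technical.

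Early response genes are transcribed within minutes of a growth factor, cytokine or stress signal, without new protein synthesis, and their mRNAs are short-lived. The Fos and Jun families encode the subunits of the AP-1 transcription factor, the Egr and Nr4a families encode further transcription factors, and Dusp phosphatases and Zfp36 shut the response down by inactivating MAP kinases and by promoting decay of AU-rich mRNAs. In cells grown in interleukin 3 the receptor signals through JAK2 and STAT5 and through the MAP kinase ERK, which phosphorylates factors bound at the Fos promoter.

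The label was checked against markers first. The interleukin 3 receptor genes Il3ra and Csf2rb were detected on all 3 arrays of each frequency, but of 12 B-lineage identity genes on the array 1, Cd79b, passed the detection filter, at 7.83, 7.94 and 8.07 log2 at 1 kHz and 8.29, 7.86 and 7.97 at 18 kHz. Of 13 mast cell and basophil genes on the array 9 passed. Of 31 markers of T cells, erythroid cells, fibroblasts and macrophages 10 were measured, and none of the 7 fibroblast markers was among them.

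Transcript levels are given as log2 normalized bead intensities. Probes detected on 1 kHz arrays numbered 14167, 13634 and 13314 of 45281, against 11964, 9420 and 13643 at 18 kHz and 13123 to 14355 in untreated cells. The 18 kHz arrays stood apart in brightness before normalization: the 95th percentile of the intensity was 1401.8, 1618.5 and 1857.1 at 1 kHz, 732.7, 277.4 and 1110.7 at 18 kHz, and 1482.4 to 1524.2 in untreated cells. Correlations of log2 levels within a group were 0.991 to 0.996 at 1 kHz, 0.925 to 0.977 at 18 kHz and 0.994 to 0.995 in untreated cells. The median SD of a gene over 3 arrays was 0.125 at 1 kHz and 0.263 at 18 kHz. Quantile normalization gives all arrays the same distribution of levels, so that all changes below are relative to the other transcripts of the same array. Fewer cells in a sample and less RNA per cell cannot be told apart in such bulk extracts, and their part in the results was not tested.

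At 1 kHz, 231 of 9675 genes tested differed from 18 kHz (2.39% called, limma, adjusted p below 0.05), with 78 higher (0.806%) and 153 lower (1.58%). The genes higher at 1 kHz had a median fitted change of 1.03 log2, or 0.72 log2 with undetected arrays at their bound. With bounds 25 of 78 exceeded 1 log2 and 10 exceeded 2 log2, and for 21 the bound allowed no difference. The genes lower at 1 kHz had a median change of -0.91 log2, or -0.90 with bounds, under which 60 of 153 lay beyond -1 and 5 beyond -2. The genes called higher had a median level of 7.83 at 1 kHz, 5.44 at 18 kHz and 7.80 in untreated cells, and the genes called lower 7.43, 8.42 and 7.63. For both sets the median level at 1 kHz was nearer to the untreated level than to that at 18 kHz. This is no separate result, because the sets were chosen by the gap between the frequencies. Genes could also pass the detection filter through 1 kHz and untreated arrays alone. The median of 5.44 lay below the lowest detected level of each 18 kHz array (5.45 to 6.70). Groups did not overlap for all 231 called genes, as they did not for 28.1% of all genes tested. Of the 78 genes higher at 1 kHz, 30 were detected on no 18 kHz array and have only a lower bound on their fold change.

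**Figure D1:**
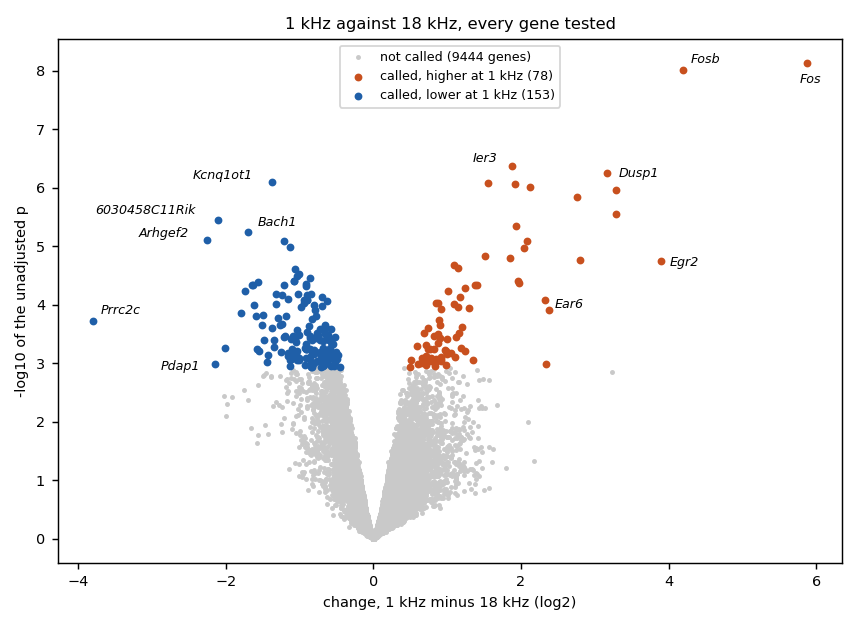
Change between 1 kHz and 18 kHz (log2, horizontal axis) against -log10 of the unadjusted p (vertical axis) for each of the 9675 genes tested, with 78 called higher in orange and 153 called lower in blue. Fos and Fosb stand apart at the upper right, and the largest falls, such as Prrc2c, have less extreme p-values than rises of similar size.

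Leaving out 1 array moved these counts by more than 1.5 times in 8 of 9 cases. The count of called genes was 24, 59 and 25 without 1 kHz replicates 1, 2 and 3. Among the 18 kHz arrays, leaving out replicates 1, 2 and 3 gave 104, 176 and 2557. Without untreated replicates 1, 2 and 3, which enter only through the estimate of the spread, it was 83, 88 and 83. Without both dimmer 18 kHz arrays (replicates 1 and 2) 75 genes were called, 29 higher and 46 lower. Of these, 23 were among the 78 higher genes and 29 among the 153 lower genes. Median scaling in place of quantile normalization called 5107 genes higher and 1 lower, with the median change of all genes at 1.13 log2.

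Early response genes were among those with the largest differences. In 4 lists of such genes (AP-1 subunits, Egr, Nr4a and Klf factors, MAP kinase feedback inhibitors and other early genes) 43 genes were measured, of which 10 rose at 1 kHz, 0 fell and 33 did not pass. Of the 43, 23.3% were thus called higher, against 0.806% of all genes tested, in lists chosen with earlier results of these data known. The median change of the 43 was 0.31 log2 (0.24 with undetected groups at their bound), against 0.03 over all genes. Positive changes numbered 27 of 43, against 5122 of 9675 over all genes. Similar medians were found in some lists with 0 called, at 0.34 log2 for cholesterol synthesis and 0.36 for mast cell and basophil genes. The heat shock list, also with 0 called, was at 0.07. The 10 were Fos, Fosb, Junb, Egr2, Nr4a2, Dusp1, Dusp2, Ier3, Mir17hg and Csrnp1. Mir17hg is counted in the list of nuclear noncoding RNAs too. The count was 9 without both dimmer 18 kHz arrays. There Jun was newly called, and Egr2 (adjusted p = 0.0505) and Nr4a2 (adjusted p = 0.0853) were not. When any 1 array was left out the count was 7 to 17. The highest was without 18 kHz replicate 3, when 1360 of 9675 genes were called higher and 2 of the 43 lower.

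The DNA before the start of 4 of the early response genes called higher is shown first, with Bach1, which moved the other way, for comparison. They are examples, and no link between promoter DNA and the changes was tested. The sequences are RefSeq promoters of build GRCm38.p6, the 150 bases before the annotated start, read 5′ to 3′ on the gene's strand. Capitals mark the TGACG half-site of the cyclic AMP response element (either strand), the TATA box TATAAA and the CArG box bound by serum response factor.
Fos, chr12:85473740-85473889 (+): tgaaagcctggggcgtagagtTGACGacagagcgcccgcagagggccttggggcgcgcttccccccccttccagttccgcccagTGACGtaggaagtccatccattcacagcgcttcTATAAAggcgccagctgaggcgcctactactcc
Fosb, chr7:19310046-19310195 (-): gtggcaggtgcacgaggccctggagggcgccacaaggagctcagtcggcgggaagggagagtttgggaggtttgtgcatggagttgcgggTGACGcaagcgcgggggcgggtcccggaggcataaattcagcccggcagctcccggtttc
Dusp1, chr17:26508473-26508622 (-): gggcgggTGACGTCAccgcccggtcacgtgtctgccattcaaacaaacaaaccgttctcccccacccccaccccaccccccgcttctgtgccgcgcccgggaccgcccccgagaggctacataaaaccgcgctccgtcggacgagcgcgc
Egr2, chr10:67537719-67537868 (+): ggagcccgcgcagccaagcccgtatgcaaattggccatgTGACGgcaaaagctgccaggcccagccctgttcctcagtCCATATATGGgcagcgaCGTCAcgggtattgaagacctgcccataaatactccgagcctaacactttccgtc
Bach1, chr16:87698804-87698953 (+): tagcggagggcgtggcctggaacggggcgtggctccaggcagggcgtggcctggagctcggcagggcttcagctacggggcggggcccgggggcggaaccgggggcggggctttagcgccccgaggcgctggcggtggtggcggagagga

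Fos carries TGACG 129 and 66 bases before its start and TATAAA 33 bases before it, and Fosb carries TGACG 60 bases before its start. In Dusp1 the half-sites of both strands overlap in the palindrome TGACGTCA, which begins 143 bases before the start. Egr2 holds TGACG 111 bases and, on the other strand, 55 bases before the start, with a CArG box 72 bases before it. This is 1 of 5 Egr2 starts listed, and it was picked by hand. No such letters lie in the Bach1 window. Over the whole RefSeq windows (250 bases before to 50 after the start) TGACG on either strand was found in 41.1% of 73 promoters of the genes higher at 1 kHz (50 genes with a promoter), 37.7% of 138 promoters of the genes lower at 1 kHz (107 genes) and 20.8% of all 32851 promoters, which include genes not expressed here. A gene with several listed starts counts more than once here. By gene, TGACG was found in 23 of 50 higher genes, 51 of 107 lower genes and 6228 of all 27025. Its share was thus similar in the higher and the lower genes, and Bach1 does not stand for the lower genes as a set. Of the 15 largest rises it was found in 6 of 12 genes with a promoter, and of the 15 largest falls in 8 of 14. The CArG box was found in 5 of 73, 0 of 138 and 1.63% of all, the 5 belonging to 2 genes. The heat shock element GAANNTTC was in 1.37%, 5.80% and 7.86%. A match is a string of letters and was not tested as a binding site.

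Fos, the founding AP-1 subunit, had the largest change of all genes tested. It stood at 11.62, 11.81 and 12.02 at 1 kHz, against 6.37, 5.39 and 6.08 at 18 kHz and 12.54, 11.78 and 12.26 in untreated cells. All 1 kHz arrays lay above all 18 kHz arrays, by more than 5 log2, and within the range of the untreated arrays except for 1 kHz replicate 1. The mean was 11.82 ± 0.20 at 1 kHz and 5.95 ± 0.51 at 18 kHz (SD, n = 3 each), a difference of 5.87 ± 0.27 (SE; adjusted p = 4.66e-05). Detected on 2 of 3 arrays at 18 kHz, Fos was at least 43.2-fold higher at 1 kHz with the remaining array at its lowest detected level. The difference was plain before any normalization: the mean intensity of the beads for Fos was 4057, 5329 and 6774 at 1 kHz, 167, 115 and 156 at 18 kHz, and 8136, 4807 and 6400 in untreated cells, read from 35 to 57 beads per array.

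Fosb, a close relative that also dimerizes with Jun proteins, stood at 8.87, 8.88 and 9.03 at 1 kHz, against 4.49, 4.74 and 4.96 at 18 kHz and 9.11, 8.34 and 8.57 in untreated cells. It was detected on every 1 kHz and untreated array and on no 18 kHz array. Fosb was at least 7.57-fold higher at 1 kHz (adjusted p = 4.66e-05). Junb, the Jun protein that partners them in many immune cells, was detected on all arrays. Its levels were 10.15, 10.24 and 10.20 at 1 kHz, against 8.79, 9.19 and 9.17 at 18 kHz and 10.55, 10.38 and 10.71 in untreated cells. Junb was 2.21-fold higher at 1 kHz (1.14 ± 0.14 log2, SE; adjusted p = 0.00894, and 0.0574 or 0.0617 without 1 kHz replicate 1 or 3).

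The 10 measured AP-1 family genes had a median change of 1.01 log2 (0.74 with bounds). Of these 3 rose at 1 kHz, 0 fell and 7 did not pass (30% called, against 2.39% of all genes tested). Among those that did not pass were genes of the small Maf proteins, the partners of CNC family factors. Mafk (adjusted p = 0.0693) was detected on all 1 kHz arrays and no 18 kHz array, and Maff (adjusted p = 0.0831) on all 1 kHz arrays and 1 of 3 18 kHz arrays, so that their differences are only bounded, while Mafg was at -0.04 log2 (adjusted p = 0.853). Jun itself was at 6.54, 6.63 and 6.54 at 1 kHz and 6.02, 6.87 and 5.27 at 18 kHz (detected on 2 of 3 arrays there), and the groups overlapped. The change of Jun was 0.52 log2, with a 95% interval from -0.25 to 1.28 (adjusted p = 0.336, and 0.0269 without both dimmer 18 kHz arrays, at 1.30 log2).

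**Figure D2:**
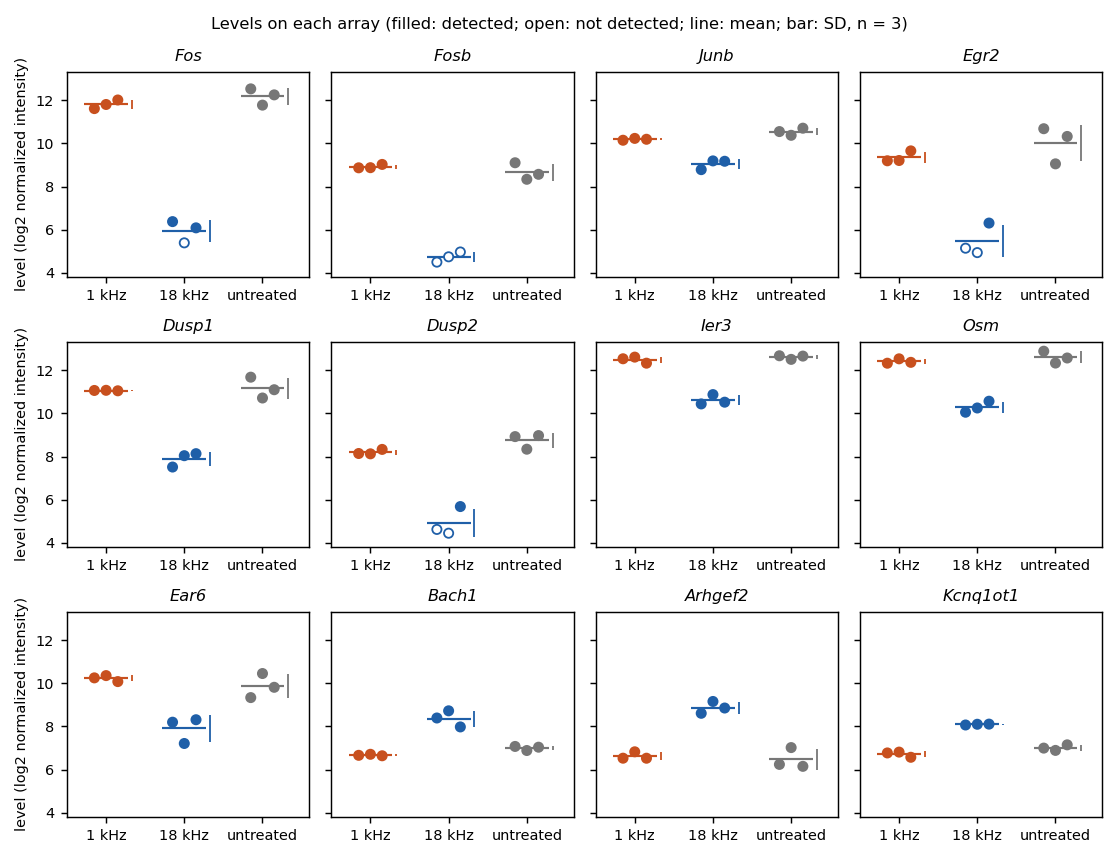
Level on each array (log2 normalized intensity, vertical axis) of 12 named genes at 1 kHz (orange), 18 kHz (blue) and in untreated cells (grey), 3 arrays each, with the mean as a line and the SD as a bar, and open circles where the array did not detect the probe. Fos lies near 12 at 1 kHz and in untreated cells and near 6 at 18 kHz, while Bach1, Arhgef2 and Kcnq1ot1 are lower at 1 kHz than at 18 kHz.

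The gene for the zinc finger protein Egr2 stood at 9.20, 9.21 and 9.66 at 1 kHz, against 5.14, 4.93 and 6.30 at 18 kHz and 10.69, 9.05 and 10.33 in untreated cells. Only 18 kHz replicate 3 detected it at that frequency. Egr2 was at least 8.36-fold higher at 1 kHz with the other 18 kHz arrays at their lowest detected level (3.90 ± 0.46 log2 as fitted, adjusted p = 0.00739). Its adjusted p was 0.0519 without 1 kHz replicate 3 and 0.0505 without both dimmer 18 kHz arrays. The orphan nuclear receptor gene Nr4a2 was detected on all 1 kHz arrays (5.80, 6.27 and 5.80) and on no 18 kHz array, and no fold is given because its level lay near the detection limit of the 18 kHz arrays (adjusted p = 0.0397). That call was lost without any 1 kHz array, without 18 kHz replicate 2 or without any untreated array, with adjusted p of 0.0534 to 0.137. The other 6 measured members of the Egr, Nr4a and Klf list did not pass, and the list's median change was 0.10 log2. Its share called was 25%, against 2.39% of all genes tested.

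Of the measured MAP kinase feedback inhibitors, only Dusp1 and Dusp2 were called. Dusp1, which is nuclear and acts on ERK, p38 and JNK, stood at 11.07, 11.07 and 11.05 at 1 kHz, against 7.51, 8.04 and 8.13 at 18 kHz and 11.68, 10.72 and 11.10 in untreated cells. The 1 kHz arrays were nearly equal and lay above all 18 kHz arrays. Dusp1 was 9.0-fold higher at 1 kHz (3.17 ± 0.25 log2, SE; adjusted p = 0.00116). Dusp2, an inducible phosphatase of hematopoietic cells, stood at 8.14, 8.13 and 8.33 at 1 kHz, against 4.61, 4.44 and 5.68 at 18 kHz, with detection on 1 of 3 18 kHz arrays. It was at least 4.34-fold higher at 1 kHz (adjusted p = 0.00251). Its other measured probe, detected on no 18 kHz array, was at least 1.95-fold higher (1.93 log2 as fitted). The other 7 measured inhibitors did not pass, all 7 with negative changes. Dusp7 was the nearest to the threshold at -0.53 log2 (adjusted p = 0.0738, and 0.79 log2 under median scaling, which places the median of all genes at 1.13). The list's median was -0.30 log2, and 22.2% of its genes were called, against 2.39% of all genes tested.

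Of the 16 other early response genes measured 3 rose, 0 fell and 13 did not pass (18.75% called, against 2.39% of all genes tested). Ier3, an early gene linked to survival signalling, stood at 12.54, 12.62 and 12.33 at 1 kHz, against 10.44, 10.88 and 10.52 at 18 kHz, and was 3.69-fold higher (adjusted p = 0.00116). Csrnp1, a nuclear protein induced by cytokines, stood at 9.64, 9.34 and 9.77 at 1 kHz, against 6.55, 6.79 and 7.13 at 18 kHz, and was 6.76-fold higher (adjusted p = 0.00137). Mir17hg, the host transcript of an oncogenic microRNA cluster, listed on the array under an older name, stood at 7.98, 8.16 and 8.44 at 1 kHz, against 4.55, 4.60 and 5.57 at 18 kHz. Detected on 1 of 3 18 kHz arrays, it was at least 4.43-fold higher at 1 kHz (adjusted p = 0.00116). For all 3 genes the groups did not overlap. The growth arrest genes Gadd45b (detected on 1 of 3 18 kHz arrays, adjusted p = 0.055) and Gadd45a (0.65 log2, adjusted p = 0.0556) did not pass.

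Zfp36, which binds AU-rich elements and speeds the decay of early response and cytokine mRNAs, stood at 9.45, 9.56 and 9.35 at 1 kHz, against 7.50, 7.68 and 7.07 at 18 kHz and 10.12, 9.29 and 9.87 in untreated cells. It was 4.12-fold higher at 1 kHz (2.04 ± 0.23 log2, SE; adjusted p = 0.00545). It was the sole gene of 17 measured decay factors to pass (5.88%, against 2.39% of all genes tested). The median change of that list was 0.07 log2.

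Of 14 cytokine and chemokine genes measured, 4 rose at 1 kHz, 1 fell and 9 did not pass, with a median change of 0.36 log2. The share called was 35.7%, against 2.39% of all genes tested. Osm, which encodes oncostatin M and is a STAT5 target in cells grown in interleukin 3, stood at 12.33, 12.54 and 12.37 at 1 kHz, against 10.06, 10.25 and 10.57 at 18 kHz and 12.89, 12.34 and 12.58 in untreated cells. Osm was 4.35-fold higher at 1 kHz (adjusted p = 0.00116), and its other measured probe rose by 1.63 log2. The chemokine gene Ccl3 stood at 7.74, 8.02 and 7.79 at 1 kHz, against 4.53, 4.93 and 5.70 at 18 kHz, and was at least 3.39-fold higher with detection on 1 of 3 18 kHz arrays (adjusted p = 0.00739). Smaller rises were found for the cytokine genes Il6 (0.98 log2, adjusted p = 0.0391) and Lif (at least 1.26-fold, adjusted p = 0.0264), and a fall for Tgfb1 (-0.63 log2, adjusted p = 0.044). The other measured probes of Lif were not called by limma. One, detected on 2 of 3 18 kHz arrays, was at -0.31 log2 as fitted (adjusted p = 0.628). The other, detected on no 18 kHz array, was at 0.72 log2 as fitted (adjusted p = 0.0623). The calls of Il6, Lif and Tgfb1 were lost when 1 kHz replicate 1 or 3, 18 kHz replicate 1 or any untreated array was left out. Leaving out 18 kHz replicate 2 ended those of Il6 and Tgfb1, and leaving out 1 kHz replicate 2 those of Lif and Tgfb1. The highest adjusted p was 0.179 for Il6, 0.131 for Lif and 0.191 for Tgfb1.

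Socs3, the feedback inhibitor of JAK kinases that cytokine receptors induce, stood at 7.96, 7.91 and 7.98 at 1 kHz, against 6.61, 6.29 and 6.43 at 18 kHz and 8.36, 7.68 and 8.21 in untreated cells. The groups did not overlap, and Socs3 was at least 2.59-fold higher at 1 kHz with detection on 2 of 3 18 kHz arrays (adjusted p = 0.00716). In the list of interleukin 3 and STAT5 targets 17.6% were called, against 2.39% of all genes tested. Of its 17 genes 2 rose (Osm and Socs3) and 1 fell. The gene that fell was Ccnd2, which encodes the G1 cyclin D2 and stood at 9.28, 9.48 and 9.23 at 1 kHz, against 10.27, 10.40 and 10.14 at 18 kHz. Its change was -0.94 log2 (adjusted p = 0.0152, and 0.0936 or 0.0942 without 1 kHz replicate 1 or 3), and its other 2 measured probes were called in the same direction, at -0.97 and -1.32 log2.

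The median change of 14 NF-kB subunits and targets was 0.40 log2, and 21.4% were called, against 2.39% of all genes tested. Of the 14, 3 rose, 0 fell and 11 did not pass. Besides Ccl3 these were the atypical inhibitor family members Nfkbiz and Nfkbid, which modulate NF-kB in the nucleus. Nfkbiz stood at 8.59, 8.59 and 8.61 at 1 kHz, against 6.58, 6.08 and 7.22 at 18 kHz, and was at least 3.39-fold higher with detection on 2 of 3 18 kHz arrays (adjusted p = 0.0113, and 0.0707 or 0.0687 without 1 kHz replicate 1 or 3). Nfkbid was 1.12 log2 higher (adjusted p = 0.0314, lost without any 1 kHz array, 18 kHz replicate 1 or any untreated array, at up to 0.146). The classical inhibitor Nfkbia was at 0.57 log2 and did not pass (adjusted p = 0.0608).

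**Figure D3:**
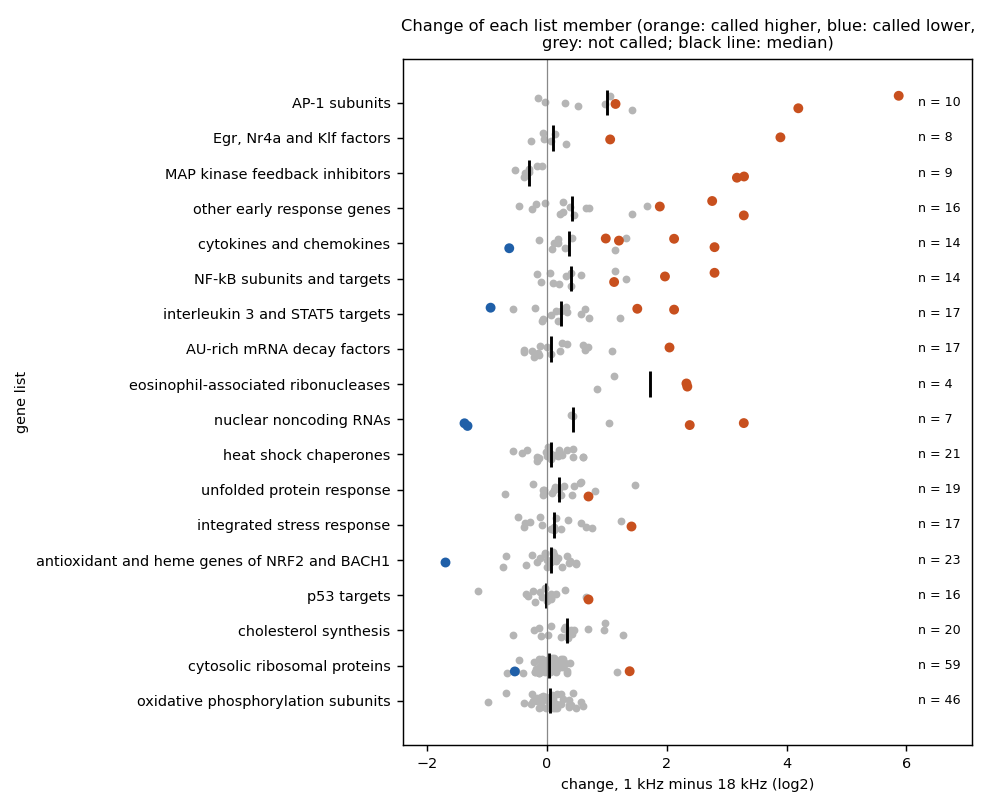
Change between 1 kHz and 18 kHz (log2, horizontal axis) of each measured member of 18 gene lists (vertical axis), with members called higher in orange, called lower in blue, not called in grey, and the median as a black line. The largest rises lie in the early response, cytokine and noncoding lists, and the heat shock list, with 21 members, is centred near 0.

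The stress response lists were described in the same way, against 2.39% called of all genes tested. Of 29 heat shock genes listed and on the array, 21 passed the detection filter. Hspa1a, Hspa1b and Hspb1 were not among the 21, which included the heat shock factor genes Hsf1 and Hsf2. Of the 21 measured 0 were called by limma, and their median change was 0.07 log2. At an unadjusted p below 0.05 there were 4 of the 21, against 2605 of all 9675 genes tested. The HSC70 gene Hspa8 stood at 14.11, 14.07 and 14.05 at 1 kHz and 14.01, 14.02 and 14.05 at 18 kHz, a change of 0.05 log2 with a 95% interval from -0.15 to 0.25. For Dnajb1, an HSP40 co-chaperone that heat induces, the change was 0.13 log2 (interval from -0.16 to 0.43). Hsph1, an HSP110 chaperone, changed by -0.33 log2 (adjusted p = 0.156) and Hspe1, the mitochondrial HSP10, by 0.33 log2 (adjusted p = 0.212). Neither passed, and under median scaling Hsph1 stood at 0.99 log2, below the median of all genes.

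In each of the unfolded protein response, integrated stress response and p53 lists 1 gene passed. Ppp1r15a, which encodes the phosphatase subunit GADD34 that reverses translational arrest, stood at 8.95, 9.31 and 9.28 at 1 kHz, against 7.58, 7.71 and 8.03 at 18 kHz and 9.47, 9.02 and 9.61 in untreated cells. It was 2.65-fold higher at 1 kHz (adjusted p = 0.0113, and 0.0517 or 0.0707 without 1 kHz replicate 2 or 3). The endoplasmic reticulum chaperone gene Dnajb9 and Cdkn1a, the p53-induced inhibitor of cyclin-dependent kinases, were each 0.69 log2 higher (adjusted p = 0.0299 and 0.0434). Both calls were lost without any 1 kHz array, 18 kHz replicate 1 or untreated replicate 1 or 3, and that of Cdkn1a without 18 kHz replicate 2 or untreated replicate 2 too, with adjusted p up to 0.146 for Dnajb9 and 0.191 for Cdkn1a. The medians of the 3 lists were 0.21, 0.12 and -0.02 log2, over 19, 17 and 16 genes, and the 1 gene called in each was 5.26%, 5.88% and 6.25% of its list.

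The nuclear noncoding RNAs changed in both directions. Of 7 measured, 2 rose, 2 fell and 3 did not pass (57.1% called, against 2.39% of all genes tested). Besides Mir17hg, the small nucleolar RNA gene Snora70, which guides pseudouridylation, was higher at 1 kHz, at 7.76, 7.75 and 7.90, against 5.48, 4.51 and 6.27 at 18 kHz (at least 2.88-fold with detection on 1 of 3 18 kHz arrays, adjusted p = 0.0169). Kcnq1ot1, the imprinted antisense transcript of the Kcnq1 locus, listed under an older name of this noncoding RNA, stood at 6.77, 6.81 and 6.57 at 1 kHz, against 8.07, 8.10 and 8.11 at 18 kHz and 6.89 to 7.15 in untreated cells. It was 2.6-fold lower at 1 kHz (-1.38 ± 0.11 log2, SE; adjusted p = 0.00116). Neat1, the scaffold RNA of paraspeckles, stood at 9.70, 9.60 and 9.58 at 1 kHz, against 11.32, 10.98 and 10.57 at 18 kHz and 8.80, 9.10 and 9.11 in untreated cells. Neat1 was 2.51-fold lower at 1 kHz (adjusted p = 0.0135). The calls of Snora70 and Neat1 were lost without 1 kHz replicate 1, 2 or 3, at 0.0646 to 0.095 and 0.0564 to 0.0791.

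Among the genes lower at 1 kHz, Bach1, a heme-regulated repressor that competes with NRF2 at antioxidant genes, stood at 6.66, 6.71 and 6.64 at 1 kHz, against 8.39, 8.73 and 7.98 at 18 kHz and 7.07, 6.88 and 7.04 in untreated cells. The groups did not overlap, and Bach1 was 3.24-fold lower at 1 kHz (-1.70 ± 0.17 log2, SE; adjusted p = 0.00388). Before normalization the bead intensities of Bach1 did overlap, at 239, 275 and 301 at 1 kHz and 315, 172 and 339 at 18 kHz, on 18 kHz arrays that were dimmer as a whole. Of the 23 measured antioxidant and heme genes of NRF2 and BACH1, Bach1 itself was the sole one called (4.35%, against 2.39% of all genes tested). Their median change was 0.06 log2.

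Arhgef2, a microtubule-bound guanine nucleotide exchange factor, stood at 6.53, 6.82 and 6.53 at 1 kHz, against 8.61, 9.16 and 8.86 at 18 kHz and 6.24, 7.02 and 6.15 in untreated cells. It was 4.76-fold lower at 1 kHz (-2.25 ± 0.24 log2, SE; adjusted p = 0.00467). The array lists this probe under LBCL1, an older name of the gene, and not under a RefSeq accession. The 3 other measured probes, which were matched by accession, did not pass (adjusted p = 0.337, 0.286 and 0.0802). They were detected on 2, 2 and 0 of 3 18 kHz arrays, and their fitted changes of 0.53, 1.00 and 0.71 log2 became -0.21, 0.26 and -0.42 with undetected arrays at their bound, so that no direction is given for them. The intensities of the reported probe before normalization were 227, 289 and 288 at 1 kHz and 347, 198 and 554 at 18 kHz.

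The largest fall was that of Prrc2c, a proline-rich protein linked to stress granules. It stood at 7.58, 7.49 and 7.76 at 1 kHz, against 12.30, 12.22 and 9.69 at 18 kHz and 8.41, 7.71 and 7.55 in untreated cells. The 3 18 kHz arrays were all higher than the others, replicate 3 being well below replicates 1 and 2. The change was -3.79 ± 0.62 log2 (SE; adjusted p = 0.0227), and -2.08 log2 without 18 kHz replicates 1 and 2. One of its 5 other measured probes was called with a change of -3.79 log2, and the other 4 lay between -0.79 and 0.36 as fitted and were not called. Those 4 were detected on only 1 or 2 of 3 18 kHz arrays, so that no direction is given for them. Prrc2c was also bright before normalization, with intensities of 363, 391 and 510 at 1 kHz and 3669, 1145 and 930 at 18 kHz. Its call was lost without 1 kHz replicate 1, 2 or 3, without 18 kHz replicate 1 and without untreated replicate 2 or 3, with adjusted p of 0.0509 to 0.115.

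Pdap1, which encodes a phosphoprotein that binds platelet-derived growth factor, had a similar profile, at 10.10, 10.06 and 10.10 at 1 kHz, against 12.84, 12.93 and 10.94 at 18 kHz. The change of -2.15 log2 (adjusted p = 0.0468) was -0.86 log2 without 18 kHz replicates 1 and 2, and the call was lost when any array other than 18 kHz replicate 3 was left out, with adjusted p up to 0.187. The transcript 6030458C11Rik stood at 6.64, 7.15 and 6.79 at 1 kHz, against 8.98, 9.27 and 8.64 at 18 kHz, and was 4.30-fold lower (adjusted p = 0.00283), while its other measured probe was at 0.03 log2.

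The next largest falls were found in genes of varied function. Tbl1x, a subunit of the NCoR corepressor complex, changed by -1.80 log2 (adjusted p = 0.0187), Kmt2e, a chromatin-bound SET domain protein, by -1.74 log2 (adjusted p = 0.013) and Usp48, a deubiquitinating enzyme, by -1.65 log2 (adjusted p = 0.0113). The other probe of Tbl1x was at 0.12 log2 as fitted (adjusted p = 0.524). It was detected on 1 of 3 18 kHz arrays, so that no direction is given for it. Stxbp3, which acts in vesicle fusion, was detected by its reported probe on all 18 kHz arrays and no 1 kHz array and was at least 2.08-fold lower at 1 kHz. Its other probe, detected on 2 of 3 1 kHz arrays and 1 of 3 18 kHz arrays, was at 0.05 log2 (adjusted p = 0.961). The potassium channel gene Kcnq5 had the same detection pattern and was at least 2.24-fold lower. The remaining genes of the 15 largest falls were Zfp52 (-1.62 log2), Lyz1 (-1.57), Pdzd8 (-1.56), Heatr3 (-1.51) and Lpp (-1.44). The other probe of Pdzd8, detected on all arrays of both frequencies, was at 0.21 log2 (adjusted p = 0.308). Lyz1 encodes a lysozyme and has the near-identical copy Lyz2, so that the probe's share of each is uncertain. All of these calls were lost without 1 kHz replicate 1 or 3, with adjusted p of 0.0617 to 0.189. Those of Tbl1x, Pdzd8, Heatr3 and Lpp were also lost without 1 kHz replicate 2 or 18 kHz replicate 1, that of Kcnq5 without 1 kHz replicate 2, those of Pdzd8, Heatr3 and Lpp without any untreated array, and that of Pdzd8 without 18 kHz replicate 2 (0.0537 to 0.0986).

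The detected probes of a gene were compared where there were several. Of the 78 genes higher at 1 kHz, 10 had other detected probes, 17 in all, and 14 of the 17 (82.4%) had changes of the same sign as the reported probe. Of the 153 lower genes, 53 had 87 other probes, and 42 of the 87 (48.3%) had the same sign. These are signs of fitted changes. Most other probes of the lower genes with the opposite sign were undetected on some 18 kHz arrays. Their direction is thus uncertain, as stated above for Arhgef2, and the 48.3% cannot be read as disagreement between probes. Over all genes tested 57.2% of 4455 other probes had the sign of the reported one. The median change of the other probes was 0.67 log2 for the higher genes, where the reported probes had a median of 0.79. For the lower genes it was 0.02 log2, where the reported probes had a median of -0.88, against 0.22 log2 for the other probes of all genes tested. These medians also include probes undetected on some 18 kHz arrays. Other probes called in the same direction were 29.4% for the higher genes and 11.5% for the lower genes, against 1.98% over all genes. Fos, Fosb, Egr2, Dusp1 and Bach1 had 1 measured probe each and could not be compared in this way. The probes share arrays and RNA, so that they are no independent replicates, and what separates the probes of a gene was not tested.

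**Figure D4:**
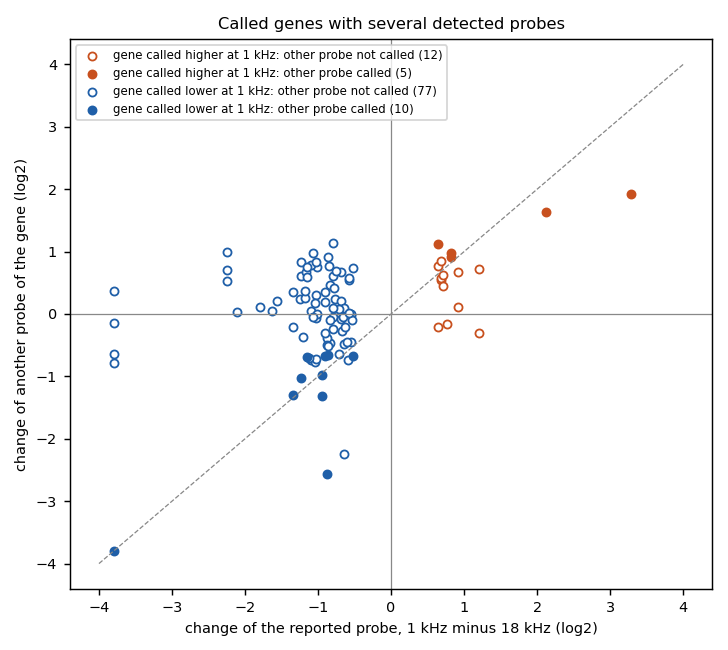
Change of each other detected probe of a called gene (log2, vertical axis) against the change of the gene's reported probe (log2, horizontal axis), with called probes filled and the dashed line marking equal change. Other probes of the genes lower at 1 kHz (blue, 87 probes) scatter around 0, with 10 called, while 14 of 17 other probes of the higher genes (orange) lie above 0.

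Ribonucleases of the eosinophil family, secreted proteins of granulocytes, were higher at 1 kHz. Ear6 stood at 10.26, 10.36 and 10.08 at 1 kHz, against 8.20, 7.21 and 8.31 at 18 kHz and 9.34, 10.46 and 9.82 in untreated cells. Ear6 was 5.02-fold higher at 1 kHz (2.33 ± 0.34 log2, SE; adjusted p = 0.0145, and 0.0591 to 0.0843 without 1 kHz replicate 1, 2 or 3). Ear2 stood at 8.28, 7.78 and 8.40 at 1 kHz, against 6.84, 4.69 and 5.90 at 18 kHz, and was at least 3.19-fold higher with detection on 2 of 3 18 kHz arrays (adjusted p = 0.0464, lost without any 1 kHz or untreated array, at up to 0.191). A probe listed as EAR4, named here after its values were seen, was detected on all 1 kHz arrays and no 18 kHz array and was higher at 1 kHz by at least 1.91-fold (adjusted p = 0.0113, lost at 0.068 or 0.0685 without 1 kHz replicate 1 or 3). Ear genes are near-identical copies of each other, so that these probes may share targets.

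The other eosinophil granule genes in this list did not pass: the major basic protein gene Prg2 was at 1.11 log2 (adjusted p = 0.0795) and the peroxidase gene Epx at 0.84 log2 (adjusted p = 0.0863). The summed level of the 4 measured list members was 5575 to 6611 at 1 kHz, 1561 to 3462 at 18 kHz and 3977 to 6484 in untreated cells, as normalized intensities. Of the 9 mast cell and basophil genes 0 were called by limma. At an unadjusted p below 0.05 there were 2 of the 9, against 2605 of all 9675 genes tested. Their sums were 34556 to 39416 at 1 kHz, 23268 to 31849 at 18 kHz and 30934 to 33804 in untreated cells. For 8 neutrophil granule genes, also with 0 called (4 at an unadjusted p below 0.05), they were 15572 to 17954 at 1 kHz, 16265 to 19092 at 18 kHz and 12761 to 16991 in untreated cells. The part of these cell type genes in the result was not tested.

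In lists of housekeeping genes the share called is set against 2.39% of all genes tested. It was 0% for oxidative phosphorylation and cholesterol synthesis, 2.78% for histone, 3.39% for ribosomal and 3.70% for proteasome genes. For mitotic genes it was 5%, for G1/S genes 7.14% and for splicing factors and CLK kinases 8%. Of 59 cytosolic ribosomal protein genes 1 rose, Rps15a (at least 2.13-fold, adjusted p = 0.0113, and 0.0669 or 0.0707 without 1 kHz replicate 1 or 3), and 1 fell, Rpl22 (-0.54 log2, adjusted p = 0.0427), with a median of 0.04 log2. Ribosomal protein genes have many processed copies, which makes probes for them uncertain. Of 46 oxidative phosphorylation genes and 20 cholesterol synthesis genes 0 were called by limma, with medians of 0.05 and 0.34 log2. At an unadjusted p below 0.05 there were 7 of each, against 2605 of all 9675 genes tested. Of 27 proteasome genes 1 was called, Psmd8 (-0.48 log2, adjusted p = 0.041). Of 25 splicing factors and CLK kinases Srsf7 rose (0.76 log2, adjusted p = 0.0377) and Luc7l3 fell (-0.86 log2, adjusted p = 0.0113). The 2 other probes of Luc7l3 were at -0.51 and -0.66 log2 and that of Srsf7 at -0.16 log2. Of 28 genes of the G1/S transition Ccne2, which encodes cyclin E2, was called higher near its detection limit (2 of 3 1 kHz arrays and no 18 kHz array; lost without any 1 kHz array), and Ccnd2 lower. Of 20 mitotic genes the kinetochore gene Cenpf fell (-1.10 log2, adjusted p = 0.0398), and of 36 histone genes H2ac8 fell (-1.06 log2, adjusted p = 0.0319). Each of the calls in the ribosomal, proteasome, splicing, mitotic and histone lists was lost without 1 kHz replicate 1 or 3, and 5 of them, Rpl22, Psmd8, Srsf7, Cenpf and H2ac8, when 1 kHz replicate 2, 18 kHz replicate 1 or untreated replicate 2 was left out. Those of Rpl22, Psmd8, Srsf7 and H2ac8 were lost without 18 kHz replicate 2, and those of all but H2ac8 without untreated replicate 1 or 3. Adjusted p reached at most 0.187.

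The arrays lay on 2 beadchips. One held 1 kHz replicates 1 and 3 and 18 kHz replicate 1, and the other held 1 kHz replicate 2, 18 kHz replicates 2 and 3 and all untreated arrays. Blocking on beadchip left 111 called genes, 49 higher and 62 lower, of which 44 and 55 were among the 78 and 153. Within the first beadchip, with a lone 18 kHz array, 2747 genes were called, and within the second, with a lone 1 kHz array, 0 (543 at an unadjusted p below 0.05). For some genes the difference was close on both. Fos was 5.45 log2 higher at 1 kHz within the first and 6.08 within the second, Fosb 4.46 and 4.03, Dusp1 3.55 and 2.99, and Ier3 1.99 and 1.92. Bach1 was lower by similar amounts, at -1.74 and -1.65 log2, as were Arhgef2 at -2.09 and -2.19 and Kcnq1ot1 at -1.40 and -1.30. For other genes it was not. Nr4a2 was at 0.54 log2 within the first and 1.55 within the second, Ear2 at 1.50 and 2.48, Pdzd8 at -2.08 and -1.18, and Lyz1 at -1.98 and -1.31. Prrc2c stood at -4.63 and -3.46 log2, Pdap1 at -2.74 and -1.88, and Csrnp1 at 3.16 and 2.37.

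**Figure D5:**
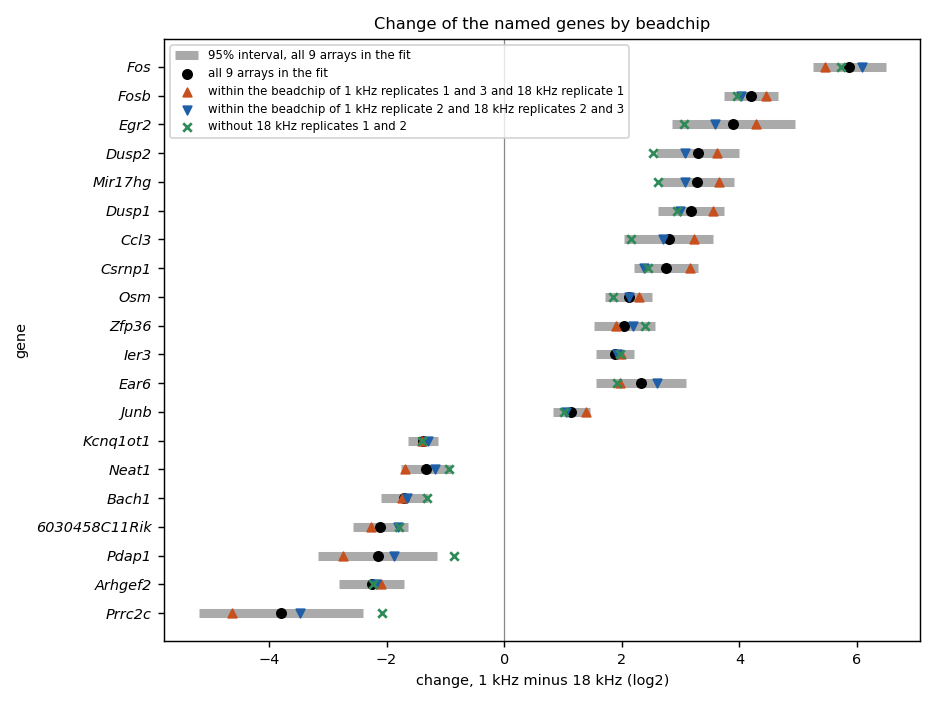
Change between 1 kHz and 18 kHz (log2, horizontal axis) of 20 named genes (vertical axis) from the fit of all 9 arrays (black, with the 95% interval in grey), within each beadchip (triangles) and without 18 kHz replicates 1 and 2 (crosses). All 4 values of each gene have the same sign, and Prrc2c and Pdap1 move most toward 0 without the 2 dimmer arrays.

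The calls of Fos, Fosb, Dusp1, Dusp2, Csrnp1, Ier3, Mir17hg, Zfp36, Osm, Ccl3 and Socs3 held under all alternatives run except the fit within the second beadchip, in which no gene was called. Those of Bach1, Arhgef2, Kcnq1ot1 and 6030458C11Rik held under all but that one and median scaling, under which Bach1 was at -0.42 and Arhgef2 at -0.98 log2 against a median of all genes of 1.13. Without both dimmer 18 kHz arrays Fos was 5.73 log2 higher at 1 kHz (adjusted p = 0.000263), Fosb 3.96 (adjusted p = 0.00157) and Dusp1 2.93 (adjusted p = 0.0103). Bach1 was then at -1.31 (adjusted p = 0.00901) and Arhgef2 at -2.23 log2 (adjusted p = 0.0275).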

How the data were processed

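RNA of 9 Ba/F3 samples (3 at 1 kHz, 3 at 18 kHz, 3 untreated) was extracted with PicoPure kits, amplified with the Illumina TotalPrep kit and hybridized to BeadChips, per the labels' protocols. The authors deposited the mean bead intensity of each of 45281 probes, before normalization and background correction per the file headers, with a detection p-value, and the bead standard error and bead number, as other values deposited beside them. Columns of 3 of the 12 arrays in this table correspond to no sample and were left out. The 9 arrays were joined to samples by beadchip and position, and 0 pairs were identical.

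With limma 3.58.1 in R 4.3.3 (data.table version 1.17.8) the normal-exponential background correction (nec) was applied with control probes inferred from the detection p-values and an offset of 16, and arrays were quantile normalized and log2 transformed. Probes with detection p below 0.01 on at least 3 of 9 arrays were kept (14130), and 1 probe per gene, that with the highest mean, was tested (9675 genes). Names came from deposited accessions (29370 probes), Entrez identifiers (2975), symbols (2214) or synonyms (2371), by a table of GRCm38.p6, or stayed as in the file (8351 probes, among them 50 called genes). Kmt2e, Arhgef2, Mir17hg, Kcnq1ot1 and Srsf7 were named through synonyms. The 9 arrays were fitted with 3 groups, and 1 kHz minus 18 kHz was tested two-sided by limma's moderated test, with p-values adjusted over all genes by Benjamini-Hochberg and called at 0.05. Where a group had undetected arrays, "at least" folds placed each such array at its lowest detected probe unless the gene itself read higher. The script was tested on simulated data. The number of arrays limits the precision.

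Genes named are the 15 largest rises and 15 largest falls among called, named genes whose groups do not overlap, 5 given markers, up to 5 members with the smallest p of each list, and any measured member of the AP-1, MAP kinase feedback and heat shock lists. A selection of them is given. The comparison, the lists and the genes were chosen with earlier results of these data known. No list was tested as a set, and lists are described by counts and medians.

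Replicate numbers were checked for pairing by the correlation of deviations from the group means over all genes. It was 0.475, 0.229 and -0.192 for numbers 1, 2 and 3. The arrays of numbers 1 and 2 shared a beadchip and those of number 3 did not. The check therefore cannot tell pairing from beadchip, and the samples were not treated as paired. Alternatives were other background, offset, scaling, filters, probe rule, samples, variance models, blocks for beadchip or replicate number, single beadchips, arrays left out, and the value table that the authors deposited, read as log2 values with column medians of -0.0361 to 0.00335. Its scale and centring are not given in the sources used here, and its direction was taken from a correlation of 0.243 to 0.878 with the arrays' own log2 deviations. Leaving out untreated arrays was added after the data were seen.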

Additional observations from a re-analysis of the deposited data

How the results depend on the processing

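The number of called genes depended strongly on the processing, and the signs of most named changes did not. The 231 called genes (78 higher and 153 lower at 1 kHz) became 707 (228 and 479) with no background correction, 463 (149 and 314) with an offset of 50, and 5108 (5107 and 1) with median scaling. They became 109 (41 and 68) of 28859 genes with no detection filter, 371 (121 and 250) of 8838 genes detected on every array of 1 frequency, and 351 (141 and 210) of 14130 probes with every detected probe tested. With only the arrays of both frequencies there were 28 (23 and 5), with a trended and robust prior 758 (251 and 507), with array weights 1691 (809 and 882), and with a beadchip block 111 (49 and 62). Within the beadchip with a lone 18 kHz array there were 2747 (1391 and 1356), and within that with a lone 1 kHz array 0 (0 and 0; 543 at an unadjusted p below 0.05). In both, the lone array is taken to vary as the others do. Leaving out 1 array gave 24 to 2557 called, 17 to 1360 higher and 7 to 1197 lower, the lowest without 1 kHz replicate 1 and the highest without 18 kHz replicate 3. Without both dimmer 18 kHz arrays there were 75 (29 and 46), and with the values deposited by the authors there were 1524 (661 and 863), whose differences correlated with those given at 0.927 across genes, which are not independent replicates. The samples share only a replicate number: with the replicate block 129 genes were called (44 and 85).

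Signs changed under median scaling alone, which set the median of all genes at 1.13: Tgfb1 stood at 0.68, Ccnd2 at 0.34, Luc7l3 at 0.34, Rpl22 at 0.77, Psmd8 at 0.75, Cenpf at 0.20, H2ac8 at 0.11, Dusp7 at 0.79 and Hsph1 at 0.99, all below that median. The cause was not tested. Of 1559 values of named genes under the alternatives 1145 kept their direction and side of the threshold, 345 no longer passed, 60 newly passed and 9 changed sign. Array weights were 0.191 and 0.252 for 18 kHz replicates 2 and 3. Low signal over background on 18 kHz replicates 1 and 2 limits what can be said of genes near the detection limit at 18 kHz.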
